A study of Mus musculus with 6 samples.

Results

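The 10 genes described here encode membrane proteins linked to the fusion of osteoclast precursors (Dcstamp, Ocstamp, Cd9, Cd81, Cd47, Sirpa, Cd44, Adam8, Tspan5 and P2rx7). They were chosen by gene symbol, and all 10 were found among the 16775 genes of the deposited count table. The cultures were osteoclasts grown from wild-type mouse bone marrow macrophages. The 3 verapamil libraries came from cells labelled as treated with verapamil, a drug that blocks L-type calcium channels, whose dose and timing the labels do not give. The control libraries used were replicates 1 and 3 of cells labelled as controls, with no vehicle named, and control replicate 2 was not analysed here. All cultures received 30 ng/ml M-CSF, then 50 ng/ml RANKL with M-CSF in medium with 10% serum. The titles give day 5, while the protocol describes medium changes up to day 7. The sex, age and strain of the mice are not given in the labels, nor is the number of mice or cultures behind a library, so any p-value here reflects library-to-library spread, which may be technical.

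An osteoclast becomes multinucleated when mononuclear precursors, driven by RANKL through the transcription factors Fos and Nfatc1, meet and merge their plasma membranes. DC-STAMP and OC-STAMP are multi-pass membrane proteins without which mouse precursors stay mononuclear. Tetraspanins such as CD9, CD81 and TSPAN5 organise partner proteins in the membrane. CD47 on one cell binds SIRPA on another, CD44 binds hyaluronan and osteopontin, ADAM8 is a metalloprotease-disintegrin, and P2RX7 is a cation channel opened by extracellular ATP.

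Of the 10 genes, Dcstamp, Ocstamp and Cd81 fell in verapamil-treated osteoclasts, and Cd9 rose. Dcstamp was 3.08-fold and Ocstamp 4.01-fold lower, Cd81 was 1.65-fold lower and Cd9 was 1.56-fold higher. The other 6 did not pass the test, with log2 fold changes between -0.19 for Cd47 and 0.34 for Tspan5. A gene was called at a Benjamini-Hochberg adjusted p under 0.05 in edgeR's quasi-likelihood test over 12619 genes, and a positive log2 fold change means higher with verapamil. Of all tested genes 25.4% were called in either direction, 15.4% as lower and 9.99% as higher. All 10 members passed the filter on low counts, and their counts of 3 lower and 1 higher stand against those shares. Higher genes made up 39.4% of all calls, against 28.2% under upper quartile scaling and 17.7% with library totals alone. The median log2 fold change of the members was -0.10, beside -0.01 for all tested genes, and the median absolute change was 0.30, beside 0.34.

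**Figure D1:**
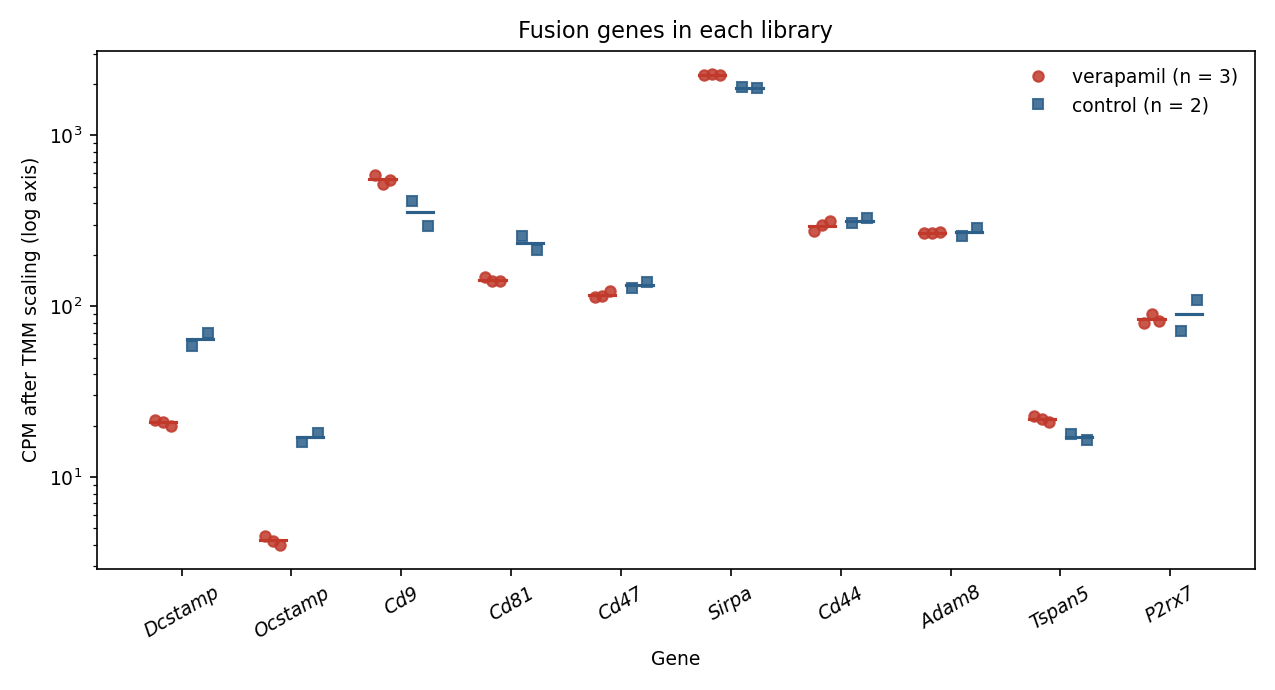
Level of each gene in each library, as reads relative to the TMM-scaled library total (CPM) on a log axis, with 3 verapamil libraries (circles) left of 2 control libraries (squares) and bars for group means. Dcstamp and Ocstamp lie lower in every verapamil library than in either control library, and Cd9 lies higher.

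The libraries held 20202340 to 21494523 estimated reads each. The controls differed more from each other (Pearson correlation of log2 CPM across genes, which are not independent, 0.9718) than the verapamil libraries did (0.9913 to 0.9929). Pairs across the groups correlated less, at 0.9376 to 0.9627. As variance over that of Poisson counting, the control pair gave 24.2 and verapamil pairs gave 1.99 to 3.50. On that measure the third control lay no closer to the first than to the verapamil libraries (20.3 to 23.4). The first control lay further from those libraries (36.6 to 44.6). Among the members the coefficient of variation was 0.595% to 6.91% in verapamil libraries and 0.804% to 28.6% in controls. The gene-wide count of calls was 1460 to 1565 when a verapamil library was left out, 4533 with control replicate 1 left out and 7808 with control replicate 3 left out, against 3200 with all 5 libraries. In those last fits the lone control is assumed to vary like the verapamil libraries. Calls of members and list counts from those fits stand against these larger totals of calls.

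The osteoclast label was checked on 14 marker genes, all at 10 CPM or more when averaged over the 5 libraries. With verapamil alone Car2 averaged 6.67 and Calcr 7.31 CPM, against 24.3 and 24.2 CPM in controls. The summed level of the 14 was 4584 to 4757 CPM in verapamil libraries and 8141 to 8784 CPM in controls, with 3 called higher and 7 called lower. Acp5, the tartrate-resistant acid phosphatase, averaged 562 ± 20.3 CPM with verapamil (SD, n = 3) and 2028 ± 155.5 CPM in controls (SD, n = 2). Mmp9 and Ctsk, also large parts of the sum, averaged 715.6 and 843.5 CPM with verapamil and 2511 and 1961 CPM in controls. Those called higher were Atp6v0d2, Clcn7 and Ostm1 (log2 0.98, 0.52 and 0.42). With any verapamil library left out, 1 marker was called higher and 6 lower. Summed markers of macrophages, which are the precursors, were 41950 to 45690 CPM with verapamil and 30710 to 31050 CPM in controls, with none of the 14 at 0 in all libraries. Lyz2, a lysozyme, made up 37620 ± 1818 CPM of that sum with verapamil and 21450 ± 507 CPM in controls, while 9 of the 14 genes were called lower and 2 higher. Summed markers of stromal cells were 1047 to 1144 CPM with verapamil and 2618 to 3289 CPM in controls, with 13 of 15 tested, all 13 called lower, and none of the 15 at 0 in all libraries. Osteoblast markers summed to 7.98 to 9.79 CPM with verapamil and 15.6 to 20.9 CPM in controls, with 4 of 5 tested called lower and none of the 9 at 0 in all libraries, though Bglap, Alpl, Ibsp, Dmp1, Phex and Tnfsf11 were each at 0 in 1 or 2 verapamil libraries. Endothelial markers summed to 28.5 to 34.3 CPM with verapamil and 8.94 to 11.5 CPM in controls. Kdr alone averaged 30.1 ± 2.57 and 4.17 ± 1.71 CPM of that, in the same order of groups. Pecam1, Emcn and Egfl7 were called lower instead (log2 -3.00, -1.89 and -1.58). Egfl7 lost its call in 7 alternatives (adjusted p = 0.0621 to 0.184), Pecam1 in 2 and Emcn in 1. With any verapamil library left out, 1 endothelial marker was called lower. Erythroid and megakaryocyte markers summed to 1.18 to 1.48 CPM with verapamil and 22.7 to 35.2 CPM in controls. Pf4 alone averaged 0.784 CPM of that with verapamil and 26.4 CPM in controls, and Hba-a1 was at 0 in all libraries. The part of these shifts in the results below was not tested. In bulk RNA, fewer fused cells and less RNA per cell cannot be told apart.

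Dcstamp (Entrez 75766, chromosome 15, 39745930 to 39760938 on GRCm38) and Ocstamp (74614, chromosome 2, 165395450 to 165400394) are the pair of dedicated fusion genes. Dcstamp measured 21.6, 21.1 and 19.9 CPM in verapamil libraries, against 58.5 and 70.0 CPM in control libraries. Ocstamp measured 4.53, 4.24 and 3.99 CPM in verapamil libraries, from 81 to 92 reads each, against 16.1 and 18.0 CPM in control libraries. For both genes every verapamil library lay below both controls, without overlap. Of all tested genes 56.7% had groups that did not overlap, 29% in the lower and 27.7% in the higher direction, and of the 10 members 4 and 3 did. The log2 fold change of Dcstamp was -1.62 (95% interval -1.92 to -1.33, adjusted p = 0.000676). That of Ocstamp was -2.005 (-2.32 to -1.69, adjusted p = 0.000543). The intervals of this pair overlap, and the difference between them was not tested in that model. Larger absolute changes were found for 6.72% of tested genes in the case of Dcstamp and for 3.45% in the case of Ocstamp. Over 14 alternative settings Dcstamp ranged from -1.81 to -1.49 and Ocstamp from -2.19 to -1.92, and both remained called in each. Dcst1 and Dcst2, relatives with the same kind of domain, were too low to be tested, at 0.101 and 0.0665 CPM with verapamil and 0.0427 and 0.0450 CPM in controls.

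Ratios of genes within a library do not depend on how libraries are scaled. The Dcstamp to Ocstamp ratio of estimated counts was 4.78, 4.98 and 4.98 in verapamil libraries and 3.63 and 3.88 in controls, so the groups did not overlap and Ocstamp was proportionally the lower of the pair. With 3 against 2 libraries an exact two-sided permutation test cannot go below p = 0.2, which was its value for this ratio and for each ratio given below (7 ratios computed).

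Likeness in pattern over the 5 libraries was measured by Euclidean distance of centred log2 CPM. Members and predicted genes (Gm and Rik names) were left out. The genes most like Dcstamp were then Bgn (0.0809), Irs1 (0.0881) and Pear1 (0.0935). Bgn, the matrix proteoglycan biglycan and one of the stromal markers above, averaged 106 ± 6.37 CPM with verapamil (n = 3) and 325 ± 31.1 CPM in controls (n = 2). Irs1, an adaptor of insulin signalling, averaged 3.29 ± 0.0277 and 10.6 ± 1.15 CPM in verapamil and control libraries. Most like Ocstamp were Ltbp1 (0.0937), Slc9b2 (0.119) and Esm1 (0.125). Slc9b2, a sodium-proton exchanger known from osteoclasts, averaged 16.7 ± 0.968 CPM with verapamil and 66.0 ± 8.895 CPM in controls. Ltbp1, which binds latent TGF-beta, averaged 7.02 ± 0.626 CPM with verapamil and 27.5 ± 1.602 CPM in controls. Ocstamp itself ranked 207 in likeness to Dcstamp among all tested genes, predicted genes included (distance 0.411).

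**Figure D2:**
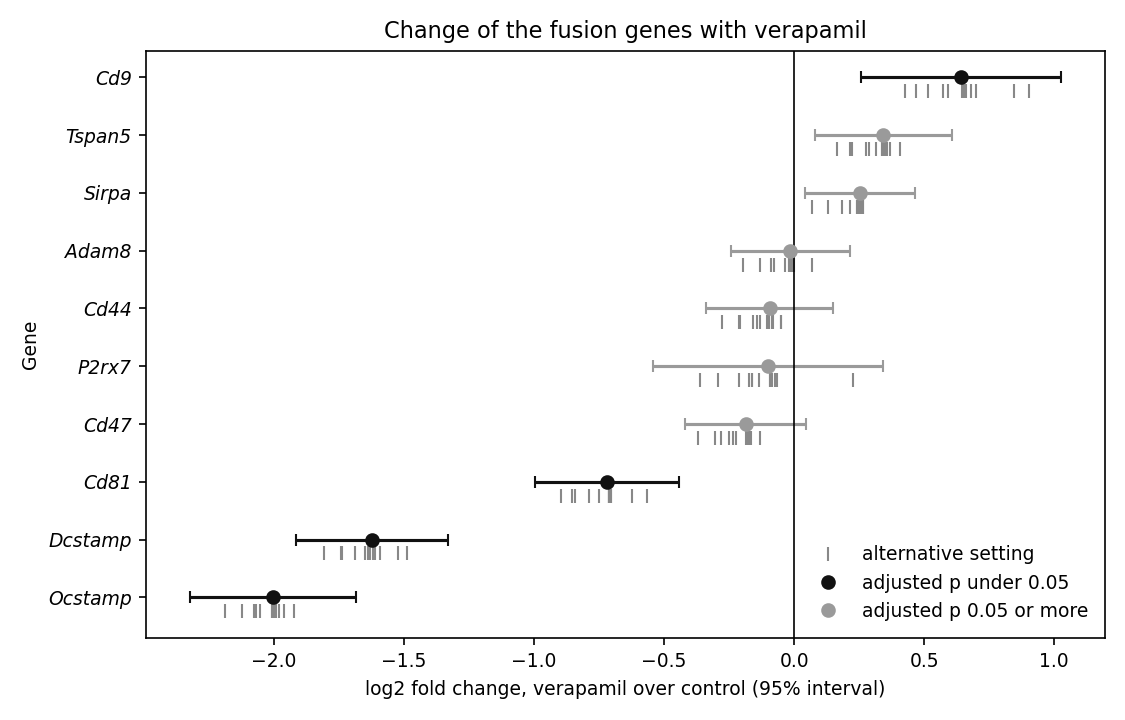
Log2 fold change of each gene, verapamil over control, with its 95% interval (points and bars, black where the adjusted p was under 0.05) and the values under 14 alternative settings (ticks). Dcstamp (-1.62), Ocstamp (-2.005) and Cd81 (-0.72) lie left of 0 under every setting and Cd9 (0.64) right of it, while Adam8 and P2rx7 cross it.

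The tetraspanins moved in different directions. Cd9 (12527, chromosome 6, 125460266 to 125494760) measured 589, 519 and 547 CPM in verapamil libraries, against 411 and 296 CPM in control libraries. Cd81 (12520, chromosome 7, 143052750 to 143067930) measured 148, 139.9 and 140.1 CPM in verapamil libraries, against 258 and 212 CPM in controls. Neither gene had overlapping groups, and control replicate 1 was the higher control for both. Cd9 rose by a log2 fold change of 0.64 (95% interval 0.26 to 1.03, adjusted p = 0.0311). Leaving out any verapamil library ended the call (adjusted p = 0.123, 0.0873 and 0.11 for replicates 1, 2 and 3), as did upper quartile scaling (0.088) and the stricter count filter (0.063), with log2 values of 0.51 to 0.68 there. With library totals alone its adjusted p came to 0.05 after rounding. The size also rested on the controls, with a log2 value of 0.90 without control replicate 1 and 0.42 without control replicate 3, both called. Cd81 fell by 0.72 on the log2 scale (95% interval -0.996 to -0.44, adjusted p = 0.00697), and stayed called in all 14 alternatives. The Cd9 to Cd81 ratio of counts was 3.98, 3.71 and 3.91 in verapamil libraries and 1.59 and 1.40 in controls, which is 2.58-fold apart in the means. Tspan5 (56224, chromosome 3, 138741848 to 138904433) measured 22.7, 21.9 and 21 CPM in verapamil libraries, against 17.9 and 16.5 CPM in controls. Its groups did not overlap, but it did not pass over all genes (log2 0.34, interval 0.08 to 0.61, adjusted p = 0.0648). It passed without control replicate 1 (0.41, adjusted p = 0.0143) or 3 (0.29, adjusted p = 0.0348).

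The proximal promoters of Cd9 and Cd81 are shown because these tetraspanins moved apart. Each holds the 250 bases before the RefSeq start site (GRCm38.p6), 5′ to 3′, with matches to the GC box GGGCGG in capitals. The Cd9 window lies on the minus strand at chr6:125494761-125495010 and the Cd81 window on the plus strand at chr7:143052500-143052749.
Cd9: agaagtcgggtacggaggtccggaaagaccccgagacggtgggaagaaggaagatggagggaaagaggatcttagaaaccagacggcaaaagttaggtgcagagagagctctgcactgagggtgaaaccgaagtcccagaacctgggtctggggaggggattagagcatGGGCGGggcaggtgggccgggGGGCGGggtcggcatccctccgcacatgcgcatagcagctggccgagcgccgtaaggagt
Cd81: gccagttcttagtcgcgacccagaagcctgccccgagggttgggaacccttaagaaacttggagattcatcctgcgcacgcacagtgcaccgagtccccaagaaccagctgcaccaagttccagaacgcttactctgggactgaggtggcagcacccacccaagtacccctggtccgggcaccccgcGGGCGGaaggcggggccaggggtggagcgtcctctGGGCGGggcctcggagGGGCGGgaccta
Cd9 has 2 GC boxes and Cd81 has 3, and 61.6% and 65.6% of their bases are G or C. GC boxes were searched after these windows had been read, on both strands, and 32.7% of 32851 promoter windows hold one. Windows of Cd47, Adam8, Tspan5 and P2rx7, which were not called, also held GC boxes, while that of Cd44 did not. Neither window holds the searched letters for AP-1 (TGANTCA, in 6.75% of windows), NFAT (TGGAAA, 18.6%), MITF (TCACGTG or TCATGTG, 6.28%) or PU.1 (GAGGAA, 23.3%). The window of Cd44 held 2 matches to the PU.1 letters, both on the opposite strand. Promoter windows were at hand for 7 of the 10 genes. Dcstamp, Ocstamp and Sirpa had none.

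Across the tetraspanin family 23 of 28 genes in the table were tested, of which 5 were higher and 7 lower (median log2 fold change -0.13). The counts were 10 and 10 with control replicate 1 left out, 7 and 11 with control replicate 3 left out, and 2 to 3 and 4 to 5 with a verapamil library left out. Per kilobase of exon Cd9 was the third most abundant member in both groups, after Cd53 and Cd63. Cd53, a leukocyte tetraspanin, rose to 1042 ± 14.02 CPM with verapamil (n = 3) against 625 ± 4.68 CPM in controls (n = 2; log2 0.74, adjusted p = 0.00268). Tspan10 belongs with Tspan5 to the subgroup that escorts the protease ADAM10. It averaged 36.4 ± 3.10 CPM with verapamil and 16.9 ± 2.34 CPM in controls (log2 1.102, adjusted p = 0.00344). Tspan33, of the same subgroup and chosen after its values were seen, was called lower on 0 to 4 reads per verapamil library and 47 to 55 per control library. The other tested genes of that subgroup, Tspan14 and Tspan17, did not pass (adjusted p = 0.108 and 0.13). Tspan3 averaged 71.0 ± 2.83 CPM with verapamil and 153.5 ± 9.94 CPM in controls (log2 -1.11, adjusted p = 0.00105), and Tspan6 1.65 ± 0.204 and 4.46 ± 0.209 CPM in the same order of groups (log2 -1.43, adjusted p = 0.00381). Of 12 tested tetraspanin partners 0 were higher and 4 lower. At an unadjusted p under 0.05, 1 was higher, and DESeq2's Wald test called 1 higher. Leaving out control replicate 1 gave 1 higher and 6 lower, and leaving out control replicate 3 gave 3 and 4. Igsf8 and Ptgfrn, immunoglobulin proteins bound by CD9 and CD81, averaged 109 ± 5.05 and 19.6 ± 2.27 CPM with verapamil and 90.3 ± 17.2 and 22.6 ± 3.12 CPM in controls. Neither passed (adjusted p = 0.197 and 0.329). Igsf8 passed without control replicate 1 (log2 0.48, adjusted p = 0.00227), and Ptgfrn with the length trend removed (-0.38, adjusted p = 0.0452). The lower partners included Vcam1 and Icam1, adhesion receptors for integrins (log2 -1.45 and -0.72, adjusted p = 0.00107 and 0.00272).

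**Figure D3:**
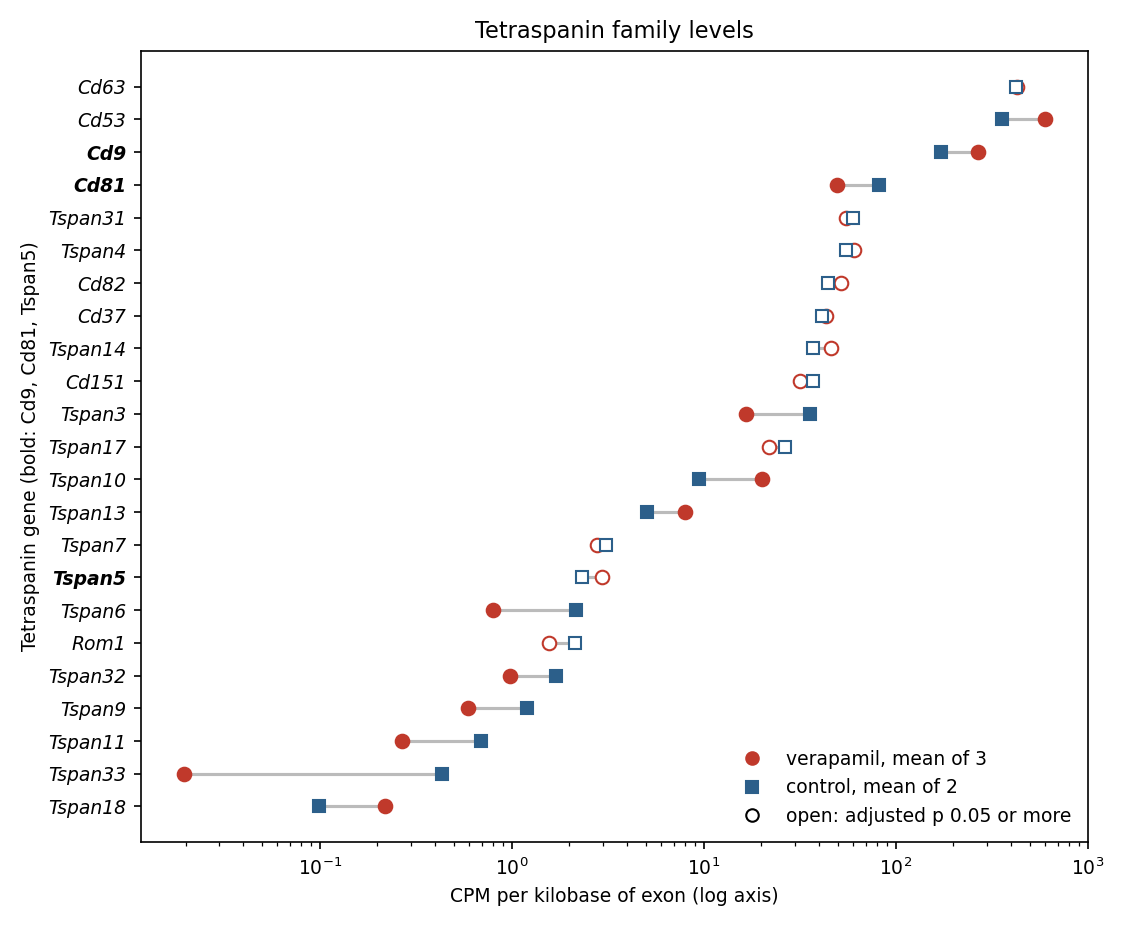
Mean level of the 23 tested tetraspanin genes per kilobase of exon (log axis) with verapamil (circles, mean of 3) and in controls (squares, mean of 2), filled where the adjusted p was under 0.05. Cd9 lies at 269.9 and 173 and Cd81 at 49.6 and 81.6 CPM per kilobase in verapamil and control libraries.

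Cd47 and Sirpa form a ligand and receptor pair that act between neighbouring precursors. Cd47 (16423, chromosome 16, 49851328 to 49912503) measured 113, 114 and 122.5 CPM in verapamil libraries, against 128 and 138 CPM in controls. Sirpa (19261, chromosome 2, 129591042 to 129632228) measured 2257, 2276 and 2250 CPM in verapamil libraries, against 1909 and 1888 CPM in controls. The groups did not overlap for either gene, with Cd47 lower and Sirpa higher with verapamil, yet neither passed. The log2 fold change of Cd47 was -0.19 (interval -0.42 to 0.05, adjusted p = 0.197), and that of Sirpa was 0.25 (0.04 to 0.46, adjusted p = 0.0829). Cd47 was called lower without control replicate 1 (-0.23, adjusted p = 0.0432), with the length trend removed (-0.28, 0.0238) and with library totals alone (-0.37, 0.0492). Sirpa was called higher without control replicate 1 (0.26, adjusted p = 0.0141) or 3 (0.24, 0.0163). The Cd47 to Sirpa ratio of counts was 0.0502, 0.0501 and 0.0544 in verapamil libraries and 0.0669 and 0.0729 in controls. No stretch of 50 bases in Sirpa transcripts occurs in those of another gene, its Sirpb1 relatives included.

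Of 15 tested genes of the Cd47 and Sirpa axis 2 were higher and 3 lower (5 and 5 with control replicate 1 left out, 6 and 3 with control replicate 3 left out, 0 to 1 and 2 without a verapamil library). Thbs1, a thrombospondin and soluble ligand of CD47, fell to 154 ± 12.8 CPM with verapamil (n = 3), against 699.5 ± 229 CPM in controls (n = 2; log2 -2.19, adjusted p = 0.00123). Its relative Thbs2 averaged 10.2 ± 0.694 CPM with verapamil and 33.1 ± 7.09 CPM in controls (log2 -1.70, adjusted p = 0.00127). Both are matrix proteins that stromal cells also make, and the stromal markers above were lower too, but a link between these falls was not tested. Sirpb1a, an activating relative of SIRPA, was higher at 2.76 ± 0.219 CPM against 1.15 ± 0.316 CPM in controls (adjusted p = 0.015), a call lost without any 1 verapamil library (adjusted p = 0.0567 to 0.0647). Lrp1, an endocytic receptor, rose by 0.93 on the log2 scale (adjusted p = 0.0217), also lost in 3 alternatives (adjusted p = 0.051 to 0.083).

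**Figure D4:**
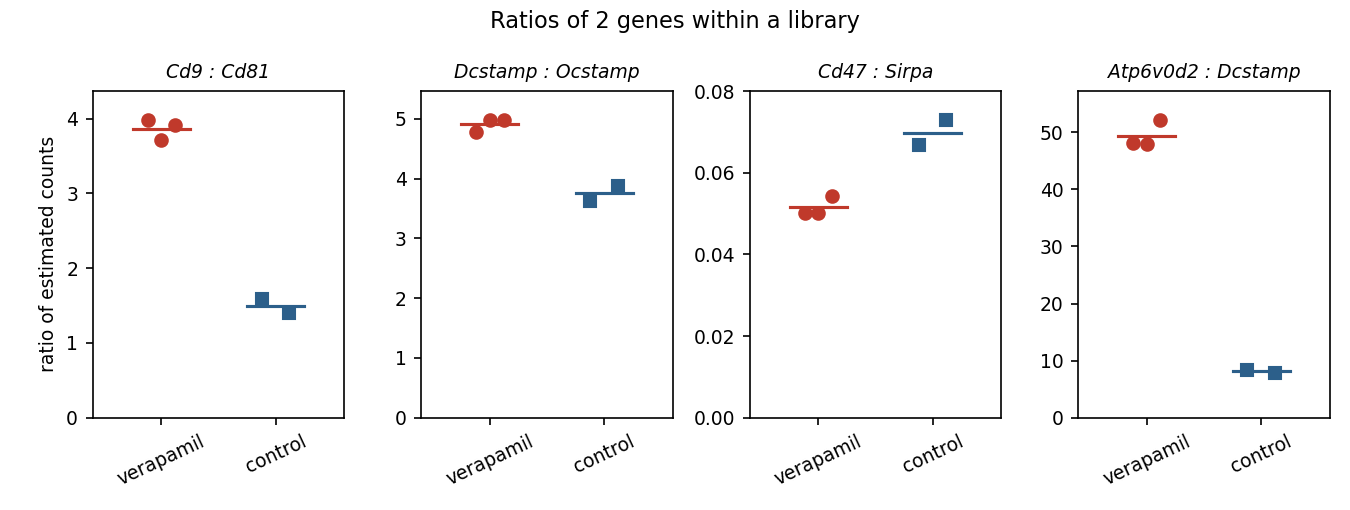
Ratio of the estimated counts of 2 genes in each library (axes start at 0; bars are group means), verapamil left of control. The Cd9 to Cd81 ratio is 3.71 to 3.98 with verapamil and 1.40 to 1.59 in controls, and the Atp6v0d2 to Dcstamp ratio is 47.9 to 52.1 and 7.90 to 8.40 in the same groups.

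Cd44 and Adam8 showed no change that the test could call. Cd44 (12505, chromosome 2, 102811141 to 102901669) measured 277, 297 and 315.5 CPM in verapamil libraries, against 307 and 326 CPM in controls. Adam8 (11501, chromosome 7, 139978932 to 139995207) measured 267, 269 and 271 CPM in verapamil libraries, against 256 and 286.5 CPM in controls. The groups of both genes overlapped. The log2 fold change of Cd44 was -0.09 (interval -0.34 to 0.15, adjusted p = 0.508) and that of Adam8 was -0.01 (interval -0.24 to 0.21, adjusted p = 0.922), turning to 0.069 without control replicate 3. The intervals leave room for a fold change between 0.792 and 1.11 for Cd44 and between 0.845 and 1.16 for Adam8.

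Around Cd44, 17 of 21 hyaluronan axis genes were tested, with 0 higher and 7 lower. At an unadjusted p under 0.05, 2 were higher, and DESeq2's Wald test called 3 higher. Without control replicate 3 the counts were 5 and 8, and without control replicate 1 they were 2 and 8. Has2, a hyaluronan synthase also made by stromal cells, averaged 0.382 ± 0.107 CPM with verapamil (n = 3) and 3.14 ± 1.39 CPM in controls (n = 2; log2 -3.02, adjusted p = 0.00389). Mmp14, a membrane metalloprotease that cleaves CD44, averaged 101 ± 7.76 and 243.5 ± 55.1 CPM in verapamil and control libraries (log2 -1.27, adjusted p = 0.00298). Mmp9, a gelatinase that docks on CD44, fell by 1.81 (adjusted p = 0.000437). Spp1, which encodes osteopontin, averaged 2257 ± 173 CPM with verapamil and 3034 ± 517 CPM in controls and did not pass (log2 -0.43, adjusted p = 0.0665). It was called in 3 alternatives (log2 -0.60 to -0.42, adjusted p = 0.000668 to 0.0438).

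In the ADAM family 1 of 10 tested genes was higher and 5 lower (4 and 5 without control replicate 3, 0 and 2 to 3 without a verapamil library). Adam8 was the most abundant of them per kilobase of exon in both groups, at 58.0 CPM per kilobase with verapamil and 58.5 in controls. Those called lower were less abundant, down to Adam12, which rested on 1 to 2 reads per verapamil library and 16 to 24 per control library. Adam19 averaged 5.74 ± 0.389 CPM with verapamil and 15.5 ± 5.49 CPM in controls (log2 -1.43, adjusted p = 0.00732). Adam10, the partner protease of TSPAN5, averaged 219 ± 6.26 CPM with verapamil and 184 ± 41.1 CPM in controls and did not pass (log2 0.26, adjusted p = 0.242), though it did without control replicate 3 (0.50, adjusted p = 0.000415). Adam33 was the one called higher (log2 0.74, adjusted p = 0.0112), a call lost without any 1 verapamil library (adjusted p = 0.0503 to 0.0607).

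P2rx7 (18439, chromosome 5, 122643927 to 122692336) measured 79.5, 90.5 and 81.9 CPM in verapamil libraries, against 71.8 and 108 CPM in controls. The 2 controls lay on either side of all 3 verapamil libraries, control replicate 3 being 1.51-fold above control replicate 1. The log2 fold change was -0.10 (interval -0.54 to 0.34, adjusted p = 0.702). It was -0.36 and called without control replicate 1 (adjusted p = 0.0131), and 0.23 without control replicate 3 (adjusted p = 0.0584), so its direction rested on 1 control library. Its promoter is shown because it held the AP-1 letters, alone among the 7 genes with a window, at 249 to 243 bases before the start, beside a pair of GC boxes (all in capitals). The window is on the plus strand at chr5:122643677-122643926.
P2rx7: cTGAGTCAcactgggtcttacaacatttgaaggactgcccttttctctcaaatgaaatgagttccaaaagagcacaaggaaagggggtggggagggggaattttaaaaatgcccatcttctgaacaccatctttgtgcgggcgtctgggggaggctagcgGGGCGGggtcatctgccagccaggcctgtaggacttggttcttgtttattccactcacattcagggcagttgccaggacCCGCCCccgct
A second P2rx7 window in the table held none of the searched letters.

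Of 16 tested genes of the P2X and extracellular ATP axis 2 were higher and 5 lower (2 and 8 with control replicate 1 left out, 3 and 7 with control replicate 3 left out, 2 and 3 to 4 without a verapamil library, 2 and 1 with the stricter count filter). The stricter filter needs at least 50 counts in every library. It left P2rx5, P2ry12, Nt5e and Adora2b, all called lower in the main fit, untested. P2ry2, a nucleotide receptor, averaged 48.9 ± 2.89 CPM with verapamil (n = 3) and 22.45 ± 1.13 CPM in controls (n = 2; log2 1.12, adjusted p = 0.00156). P2ry6, a receptor for UDP, averaged 83.7 ± 2.97 CPM with verapamil and 146 ± 24.7 CPM in controls (log2 -0.80, adjusted p = 0.00668). P2rx4, the sister channel of P2RX7, averaged 341 ± 2.13 CPM with verapamil and 337 ± 15.7 CPM in controls (log2 0.02, adjusted p = 0.9). Its estimate turned negative in 5 of the 14 alternatives. Panx1, an ATP release channel, averaged 95.2 ± 2.07 and 127 ± 29.4 CPM in verapamil and control libraries and did not pass (log2 -0.42, adjusted p = 0.0889). It was called without control replicate 3 (-0.64, adjusted p = 9.34e-05) and with library totals alone (-0.59, 0.0217).

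Other genes known from precursor fusion moved both ways. Of 30 tested 5 were higher and 6 lower, with a median of 0.02 (10 and 10 with control replicate 1 left out, 12 and 8 with control replicate 3 left out, 5 and 4 to 5 without a verapamil library). Atp6v0d2, a proton pump subunit needed for fusion in mice, averaged 1028 ± 16.9 CPM with verapamil (n = 3) and 522 ± 43.1 CPM in controls (n = 2; log2 0.98, adjusted p = 0.00159). It thus rose where Dcstamp fell, and the Atp6v0d2 to Dcstamp ratio of counts was 48.1, 47.9 and 52.1 in verapamil libraries against 8.40 and 7.90 in controls. Cd200, a surface ligand of myeloid cells, averaged 49.6 ± 1.53 and 23.9 ± 3.295 CPM in verapamil and control libraries (log2 1.05, adjusted p = 0.00272). Stab2, a receptor for exposed phosphatidylserine, averaged 12.4 ± 0.332 CPM with verapamil and 34.4 ± 2.77 CPM in controls (log2 -1.47, adjusted p = 0.000669).

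Among 21 tested transcription factors that act on the fusion programme 2 were higher and 7 lower (3 and 9 with control replicate 1 left out, 5 and 9 with control replicate 3 left out, 0 and 4 to 5 without a verapamil library, 0 and 9 with library totals alone). The 4 with the smallest p were AP-1 factors or relatives, all lower. Fos averaged 6.56 ± 1.33 CPM with verapamil (n = 3) and 45.0 ± 1.82 CPM in controls (n = 2; log2 -2.78, adjusted p = 0.000472). Jdp2 and Fosl2 fell by 1.79 and 1.26 (adjusted p = 0.000852 and 0.00244), and Fosl1, at 0.926 ± 0.248 CPM with verapamil, fell by 1.78 (adjusted p = 0.0056). Jun, a core AP-1 factor chosen after its values were seen, went the other way, at 148 ± 9.24 CPM with verapamil and 102 ± 8.99 CPM in controls (log2 0.54, adjusted p = 0.0169). No gene of the list was called higher with a verapamil library left out or with library totals alone. Nfatc1 averaged 72.2 ± 2.51 CPM with verapamil and 80.0 ± 15.6 CPM in controls and did not pass (log2 -0.15, adjusted p = 0.449). Leaving out control replicate 1 gave -0.33 (adjusted p = 0.0112) and leaving out control replicate 3 gave 0.066, while removing the length trend made it a call as well (adjusted p = 0.0448).

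**Figure D5:**
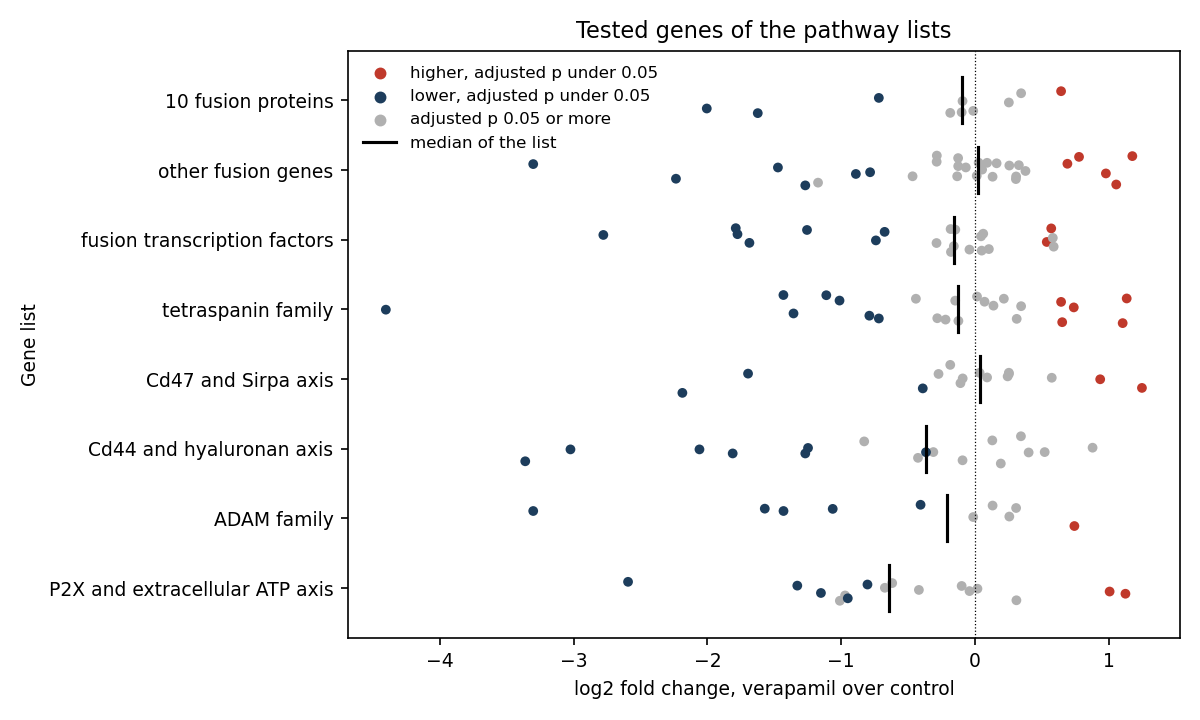
Log2 fold change, verapamil over control, of every tested gene in 8 gene lists (points coloured by call; vertical bars are list medians; points are jittered vertically). Genes called in both directions appear in most lists, with medians from -0.65 for the P2X and extracellular ATP axis to 0.03 for the Cd47 and Sirpa axis.

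Levels of different genes were compared per kilobase of exon. With verapamil the order was Sirpa (460 CPM per kilobase), Cd9 (269.9), Adam8 (58.0), Cd81 (49.6), Cd44 (43.7), Cd47 (18.6), P2rx7 (14.1), Dcstamp (7.83), Tspan5 (2.96) and Ocstamp (1.16). In controls the order was Sirpa (387), Cd9 (173), Cd81 (81.6), Adam8 (58.5), Cd44 (46.7), Dcstamp (24.1), Cd47 (21.1), P2rx7 (15.1), Ocstamp (4.67) and Tspan5 (2.33). The ranges of neighbours in the order did not overlap in either group, but Dcstamp and Cd47 in controls differed by 2.99 CPM per kilobase, less than the SD of Dcstamp (3.04). Dcstamp ranked 8 with verapamil and 6 in controls, and Ocstamp and Tspan5 changed places at the lower end. The highest level was 396-fold above the lowest with verapamil and 166-fold in controls. Exon length was the union over all GENCODE M21 transcripts, which understates the level of genes with long rare isoforms.

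Strand use in the counting is not given, so reads of overlapping antisense genes cannot be told apart from those of the members. Antisense exons cover 10.7% of the exon bases of Cd9 (Gm26728), 3.61% of those of Cd81 (R74862) and 0.992% of those of Adam8 (Gm16201). Stretches of 50 bases shared with transcripts of other genes made up 5.67% of those in Cd9, 2.80% in Ocstamp, 1.17% in P2rx7 and 0.615% in Cd47, and 0% in the other 6 genes.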

How the data were processed

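Bone marrow macrophages were differentiated with M-CSF and RANKL, RNA was taken with Trizol, and SMARTER mRNA libraries were made from 1.3 ug of RNA, per the labels' protocols. The authors deposited estimated counts of reads per gene, with 2 decimals and, judged from the values, not normalized. The mouse build was GRCm38, also listed as mm10, per the submitters' processing notes. Aligner, counter, annotation and strand setting: not given in the sources used here.

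Counts were rounded. The controls used were replicates 1 and 3, since replicate 2 was not analysed here. edgeR 4.0.16 (R 4.3.3) scaled libraries by TMM, filtered low genes (minimum count 10, minimum total 15), and ran the quasi-likelihood test on group alone, leaving 12619 genes and 3 residual degrees of freedom. Adjustment was by Benjamini-Hochberg over all tested genes. Standard errors were taken from the F statistic, and 95% intervals from the t distribution with 6.28 degrees of freedom. CPM were computed on TMM-scaled sizes. The values are means ± SD. The code was tested on simulated data.

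Alternatives were DESeq2 1.42.0, limma 3.58.1 (voom), other scalings and filters, removal of the trend on exon length, a replicate block, and leaving out each library. Members and lists were chosen with earlier results of these data known. Named genes were the members, up to 4 called genes of smallest p in each list, 9 fixed genes and the 3 nearest patterns to Dcstamp and to Ocstamp, of which not all are reported. Further marker lists were counted: dendritic cells (1 higher and 6 lower of 7 tested), lymphocytes (1 and 1 of 4), neutrophils (1 and 1 of 3), endothelium (1 and 3 of 5), and erythroid cells and megakaryocytes (0 and 3 of 3). Positions and promoters come from RefSeq on GRCm38.p6, exon lengths and transcripts from GENCODE M21.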

Additional observations from a re-analysis of the deposited data

How the results depend on the processing

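Of 140 member values under the 14 alternatives, 125 kept direction and side of the threshold, 5 lost the call (Cd9), 8 gained one (Cd47, Sirpa, Tspan5 and P2rx7) and 2 changed sign. Sirpa, Tspan5 and P2rx7 gained a call only in fits with a lone control, which is assumed to vary like the verapamil libraries. Cd47 also gained one with the length trend removed and with library totals alone. With Cd9 lost, 0 members were called higher under upper quartile factors, and 0 with at least 50 counts in every library, where 1940 genes were called in all, from fewer tested. Leaving out 1 library gave 0 to 3 members higher, 3 to 5 lower, and 1460 to 7808 genes called. With 1 library left out the log2 fold change ran from -0.087 to 0.069 for Adam8, -0.36 to 0.23 for P2rx7, -0.33 to 0.066 for Nfatc1 and -0.029 to 0.070 for P2rx4, the lower end without control replicate 1 (for P2rx4, without control replicate 3). P2rx4 turned to -0.10 under upper quartile factors, -0.16 with library totals, -0.049 with the stricter filter and -0.11 with the length trend removed. The cause of these shifts was not tested. Upper quartile factors moved the all-gene median log2 value to -0.13, and library totals to -0.20, from -0.01. Higher calls made up 28.2% and 17.7% of calls there, against 39.4%. With the stricter filter the tetraspanins had 3 higher and 4 lower, the transcription factors 1 and 5, the ADAM family 1 and 3 and the Cd47 and Sirpa axis 1 and 3. That filter left Tspan6, Tspan11, Tspan33, Fosl1, Batf3, Adam12 and Adam23, called lower in the main fit, untested. It did the same to Tspan18 and Sirpb1a, called higher. Values near 0 depend on the scaling. With the replicate block on replicates 1 and 3, 3306 genes, 1 member higher and 3 lower were called. Deviations from the group means correlated at 0.289 for number 1 and 0.0224 for number 3. With 2 controls these values are fixed to be opposite in the crossed pairs, so they cannot show whether the numbers pair the libraries, and the labels do not say. No fit included control replicate 2, since that library was not analysed here.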
